A study of Mus with 8 samples.

Results

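The insulin receptor, its substrates, the kinases and the transcription factor below them, the glucose transporters GLUT1 and GLUT4 and hexokinase 2 were followed in 3T3-L1 preadipocytes with and without down-regulation (DR) of Prep1, before and after the induction of adipogenesis. The 10 genes were chosen by name as parts of the insulin pathway, without a threshold on a measured value. They are Insr, Irs1, Irs2, Pik3r1, Akt1, Akt2, Foxo1, Slc2a1, Slc2a4 and Hk2, of 24013 genes in the table. All 10 were among the 13339 genes with enough counts to be tested.

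Insulin binds its receptor, a tyrosine kinase encoded by Insr, which phosphorylates the substrates IRS1 and IRS2. These recruit phosphatidylinositol 3-kinase through its regulatory subunit p85 alpha, the product of Pik3r1, and its lipid product activates the kinases AKT1 and AKT2. Active AKT keeps the transcription factor FOXO1 out of the nucleus and, in fat and muscle, brings the transporter GLUT4 (Slc2a4) to the cell surface. GLUT1 (Slc2a1) carries glucose into most cells without need of insulin, and hexokinase 2 (Hk2) traps it as glucose 6-phosphate. Preadipocytes take up glucose mainly through GLUT1, and GLUT4 is a late marker of fat cells. Insulin itself is part of the mixture that starts adipogenesis in 3T3-L1 cells, a mouse embryonic fibroblast line that can become fat cells in culture.

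All libraries were 3T3-L1 cells infected with a lentivirus and selected in puromycin. C cells carried a scrambled shRNA and P cells a single shRNA against Prep1. RNA was taken at day −2, before induction, from cells in calf serum, and at day 1, after 24 h with 1 μM dexamethasone, 0.5 mM IBMX (an inhibitor of cAMP breakdown) and 1 μg/ml insulin in fetal bovine serum. The hormones, the change of serum and the days since confluence therefore cannot be told apart in a comparison of the days, and an effect of Prep1 cannot be told apart from another effect of this shRNA. Each of the 4 conditions had 2 replicas, described as biological, and the p-values measure the spread between these cultures.

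The libraries held between 20428816 and 27614353 reads counted on genes, and 3 counts in a library corresponded to between 0.107 and 0.160 normalized counts, given here as CPM, counts relative to the scaled library. The replicas of P cells at day −2 stood apart. Over 5597 well expressed genes, the SD of the log2 difference between replicas was 0.795 in that condition. It was 0.137 in C cells before induction, 0.261 in C cells after it and 0.121 in P cells after it. Among the insulin pathway genes, the same difference between the P replicas at day −2 was 0.91 for Slc2a1, 0.77 for Hk2 and 0.71 for Akt1, replica 1 being higher, and at most 0.52 in size for the other genes apart from Slc2a4. Ratios of the 10 genes that use these libraries are therefore followed by their values without each of them, and the called genes of the wider pathway are treated together in this respect. Since a single model was fitted to all 8 libraries, their spread also widens the errors of comparisons that do not contain them. With either of these libraries left out, the spread is estimated from the other 3 conditions. The adjusted p-values of such fits therefore do not measure how well a difference holds.

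A gene is said to have risen or fallen when its Benjamini-Hochberg adjusted p-value, over all 13339 genes in edgeR's two-sided quasi-likelihood test, was under 0.1. It is said to be called when the ratio was also over 2 or under 0.5. Prep1 itself (Pknox1, NCBI gene 18771) had 28.1 and 26.4 CPM in C cells and 17.3 and 18.3 CPM in P cells at day −2. After induction it had 38.1 and 36.5 CPM in C cells against 23.6 and 23.8 CPM in P cells. Its log2 ratio of P to C cells was −0.62 (SE 0.14, adjusted p = 0.0558) at day −2 and −0.65 (SE 0.14, adjusted p = 0.0575) at day 1. Prep1 was thus lower in P than in C cells at each day but was not called. At day −2 the log2 ratio was −0.57 without replica 1 of the P cells and −0.67 without replica 2.

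All 10 preadipocyte and fibroblast markers examined were present, Cd34 with only 2 to 44 counts. Their summed level was between 16740 and 17840 CPM in C cells before induction and between 25730 and 29470 CPM after it, and in P cells between 21460 and 65710 CPM before and 17890 and 17960 CPM after. Markers of muscle, which shares Slc2a4 and Hk2 with fat, summed to between 1.12 and 8.68 CPM in a library, with at most 2 counts for Myod1, Myog and Ckm and none for Myf5. Those of macrophages summed to between 3.82 and 8.32 CPM and those of endothelium to between 0.398 and 1.86 CPM.

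With induction Irs1, Irs2, Pik3r1 and Foxo1 changed over 2-fold in C and in P cells, and neither kinase gene was called. In C cells, 8 of the 10 genes changed from day −2 to day 1, of which 5 were called, 3 higher (Irs2, Pik3r1 and Foxo1) and 2 lower (Irs1 and Slc2a4). Over all genes tested, 20.4% were called in this comparison and 35.6% changed, 18.1% up and 17.4% down. In P cells, 8 of the 10 changed and 5 were called, Slc2a4 now among the 4 higher ones, against 18.0% called and 31.4% changed over all genes, 14.0% up and 17.4% down. The replicas of the days did not overlap for 8 of the 10 genes in C cells (77.7% of all genes) and for 9 in P cells (60.6%). The median log2 ratio of the 10 genes was 0.65 in the induction of C cells and −0.09 in that of P cells, against −0.01 and 0.02 over all genes. Irs1, Irs2, Pik3r1 and Foxo1 were called in the same direction in C and in P cells, and in all 17 alternative analyses they changed with a log2 ratio over 1 in size.

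Fewer of them differed between P and C cells. At day −2, Irs1, Pik3r1 and Foxo1 were higher in P than in C cells, while 7.62% of all genes were higher and 3.72% lower. None of the 10 was called, against 6.98% of all genes called and 11.3% changed. At day 1, Irs1, Pik3r1 and Slc2a4 were higher in P cells, while 2.73% of all genes were higher and 3.42% lower. Slc2a4 alone was called, against 4.06% of all genes called and 6.15% changed. DESeq2 added Slc2a1 and Hk2 at day −2 and Slc2a1 at day 1 to the genes that differed, and called the same number. The medians of the 10 genes were 0.58 and −0.22 on the log2 scale, against 0.01 over all genes at either day. The replicas of C and P cells did not overlap for 7 of the 10 genes at day −2 and 9 of the 10 at day 1, and over all genes for 53.8% and 60.5%. By an unadjusted p under 0.05, 5 of the 10 differed at either day. The share of all genes at that unadjusted threshold was not computed, so this count has no background to be read against. The comparisons share libraries: each condition enters a comparison of days and a comparison of cells, so their ratios are set side by side and no overlap between them is counted.

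**Figure D1:**
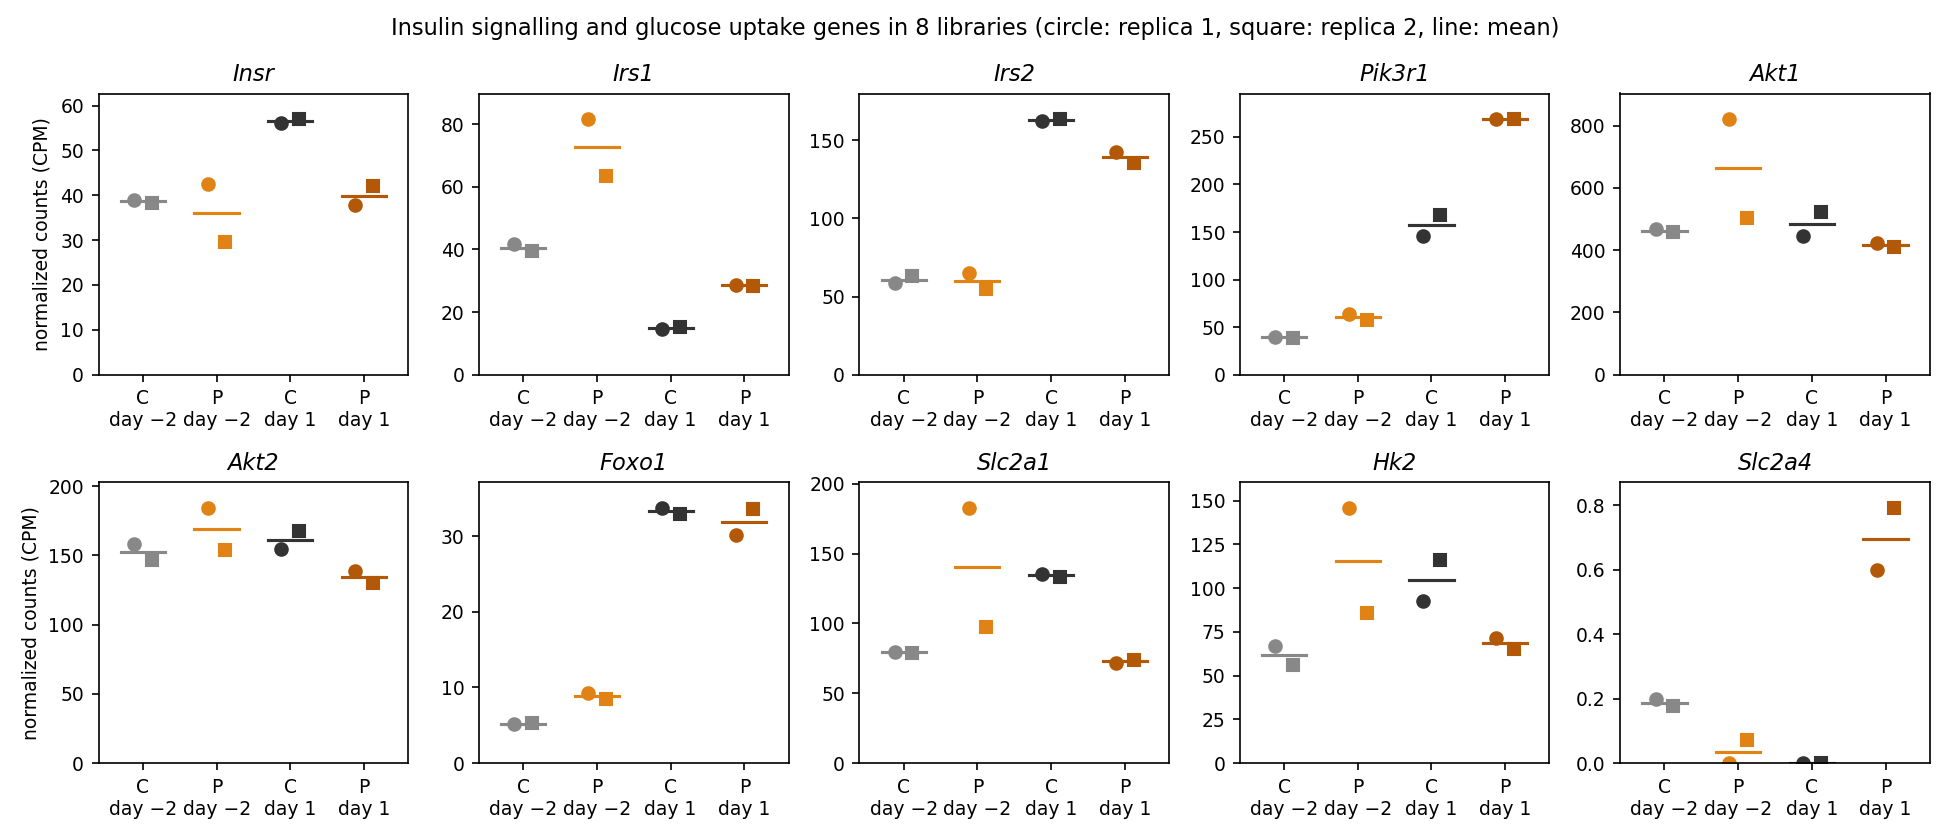
Normalized counts (CPM) of the 10 genes in each library, on linear axes that start at 0, with replica 1 as a circle, replica 2 as a square and the mean as a line, for C and P cells at day −2 and day 1. Irs2, Pik3r1 and Foxo1 lie higher at day 1 in C and P cells alike, Irs1 lies lower, Slc2a1 and Hk2 change in opposite directions in C and P cells, and Slc2a4 stays under 1 CPM in every library.

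**Figure D2:**
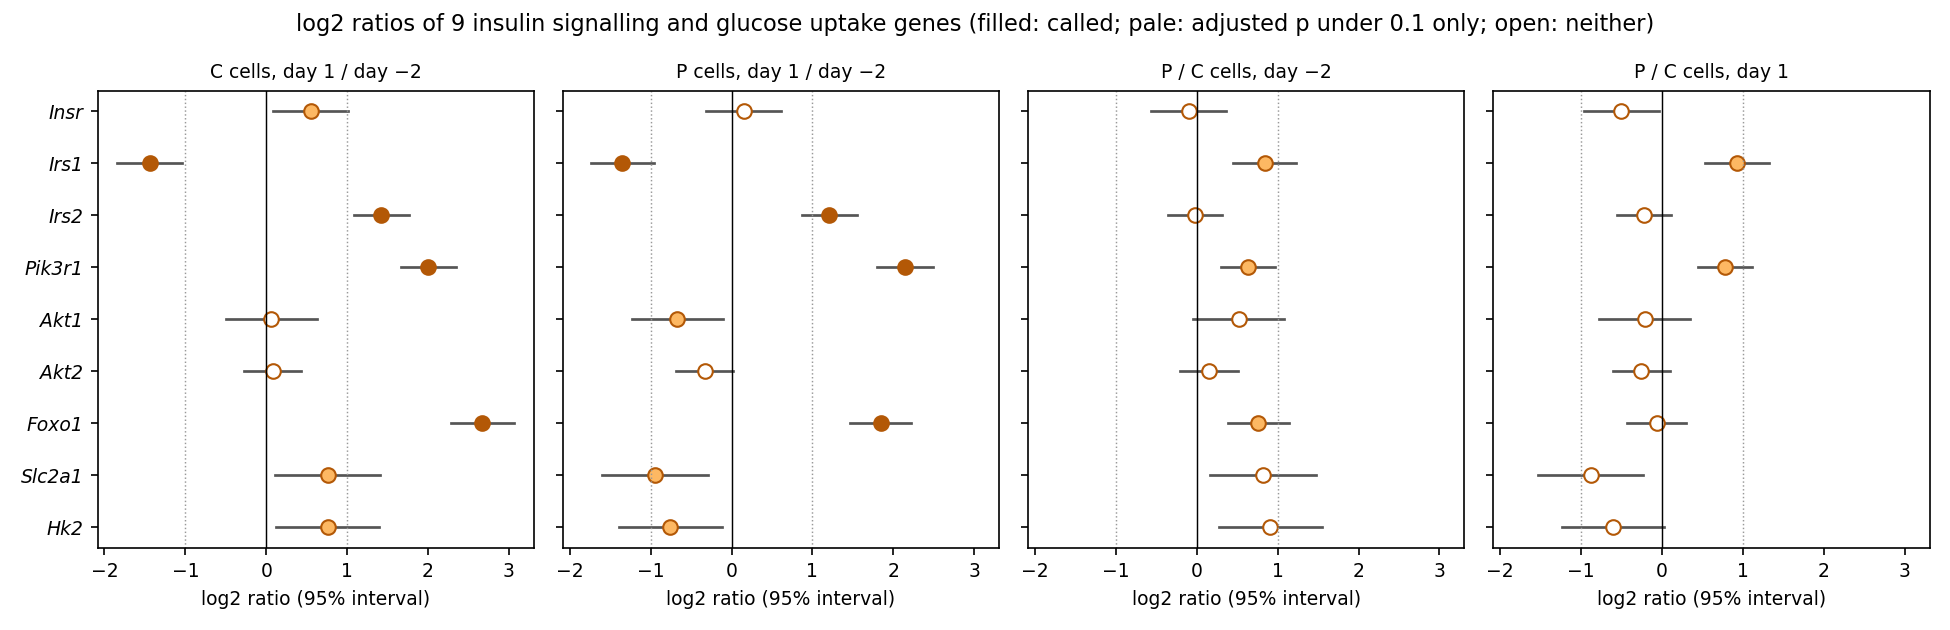
The log2 ratio of 9 genes in the 4 comparisons, with the 95% interval of the quasi-likelihood model as a line. Filled points are called, pale points have an adjusted p under 0.1 only, and dotted lines mark ratios of 2 and 0.5. Slc2a4 is left out because conditions at 0 counts leave its fitted ratio without a bound. Irs1 lies left of zero and Irs2, Pik3r1 and Foxo1 right of it in the 2 panels for induction.

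The receptor gene Insr (NCBI gene 16337) was measured at 38.95 and 38.3 CPM in C cells and at 42.5 and 29.6 CPM in P cells at day −2. After induction it had 56.1 and 57.0 CPM in C cells and 37.8 and 41.95 CPM in P cells. The C libraries at day 1 were above all others, and the P libraries at day 1 lay within the range of the P libraries at day −2. In C cells Insr rose 1.46-fold (log2 ratio 0.55, SE 0.19, adjusted p = 0.0802). The rise passed in 9 of 17 alternatives, and was lost among others without a filter on low counts (0.58, adjusted p = 0.103) and without any 1 of the C libraries at either day or of the P libraries at day 1. In P cells the log2 ratio of day 1 to day −2 was 0.15 (95% interval −0.31 to 0.61, adjusted p = 0.606), and it was 0.42 without replica 1 of the P cells at day −2 and −0.08 without replica 2. The direction of Insr in P cells thus depended on the replica kept. Between P and C cells it was −0.10 (interval −0.56 to 0.36, adjusted p = 0.739) at day −2, or −0.38 (adjusted p = 0.0741) without replica 1 of the P cells and 0.13 (adjusted p = 0.351) without replica 2. The day 1 ratio was −0.50 (interval −0.96 to −0.04, adjusted p = 0.259). The day 1 value passed in 3 of 17 alternatives, the fit to the day 1 libraries alone (−0.50, adjusted p = 0.0157) and those without either P library at day −2 (−0.53 and −0.51, adjusted p = 0.0052 and 0.00554). The response of P cells was smaller than that of C cells by a log2 difference of −0.40, which did not pass (adjusted p = 0.462). Leaving out replica 1 of the P cells at day −2 gave −0.15 (adjusted p = 0.64), and leaving out replica 2 gave −0.64 (adjusted p = 0.00648).

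The 2 substrates moved in opposite directions at induction. Irs1 (NCBI gene 16367) had 41.8 and 39.4 CPM in C cells and 81.6 and 63.5 CPM in P cells at day −2. After induction the values were 14.6 and 15.3 CPM in C cells and 28.7 and 28.2 CPM in P cells. No condition overlapped another, P cells lying above C cells at each day and each kind of cell falling with induction. Irs1 fell to 0.37 times its level in C cells (log2 ratio −1.44, SE 0.17, adjusted p = 0.00153) and to 0.39 times in P cells (−1.35, SE 0.17, adjusted p = 0.00247). The 2 responses differed by 0.09 on the log2 scale (interval −0.46 to 0.64, adjusted p = 0.82). Without replica 1 of the P cells at day −2 the fall in P cells was −1.17 (adjusted p = 6.9e-05) and the difference of the responses 0.25, and without replica 2 they were −1.51 (adjusted p = 8.64e-06) and −0.07.

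P cells held 1.79 times the Irs1 level of C cells at day −2 (log2 ratio 0.84, SE 0.16, adjusted p = 0.0354). The log2 ratio was 0.65 (adjusted p = 0.00477) without replica 1 of the P cells at day −2 and 1.00 (adjusted p = 9.86e-05) without replica 2. At day 1 P cells held 1.90 times the level of C cells (0.93, SE 0.17, adjusted p = 0.0335). Irs1 was thus higher in P than in C cells at each day, with a ratio just under the one needed for a call. The day −2 difference did not pass when only the day −2 libraries were fitted (0.82, adjusted p = 0.282) or without either C library at day −2 or either P library at day 1. The day 1 difference passed in a fit to the day 1 libraries (adjusted p = 0.00221) and was lost without any 1 library of C cells or of P cells at day 1.

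Irs2 (NCBI gene 384783) had 58.8 and 62.9 CPM in C cells and 65.1 and 55.1 CPM in P cells at day −2. The libraries of day 1 held 162.1 and 163.6 CPM in C cells and 142.7 and 135.5 CPM in P cells. Every library at day 1 lay above every library at day −2. The rise was 2.68-fold in C cells (log2 ratio 1.42, SE 0.14, adjusted p = 0.000863) and 2.31-fold in P cells (1.21, SE 0.14, adjusted p = 0.00207). The rise in P cells was 1.33 (adjusted p = 3.89e-05) on the log2 scale without replica 1 at day −2 and 1.103 (adjusted p = 5.09e-05) without replica 2. Between P and C cells, the log2 ratio was −0.02 (interval −0.35 to 0.32, adjusted p = 0.942) at day −2, or −0.13 and 0.09 without replica 1 and 2 of the P cells, and −0.23 (interval −0.56 to 0.11, adjusted p = 0.53) at day 1. At day 1 the P libraries lay below the C libraries. An overlapping transcript, 9530052E02Rik, had only 1 to 7 counts in a library.

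Within a library the share of the 2 substrates does not depend on scaling. Of the reads on Irs1 and Irs2, Irs1 took 41.5% and 38.5% in the C libraries and 55.6% and 53.55% in the P libraries at day −2. After induction it took 8.26% and 8.56% in the C libraries and 16.8% and 17.2% in the P libraries. The counts thus moved from Irs1 to Irs2 in C and P cells, and the P libraries kept the larger Irs1 share at each day. Because the 2 transcripts differ in length, the shares are of reads and not of molecules. In the same way, the ratio of Insr to Irs1 counts before induction was 0.932 and 0.971 in the C libraries and 0.521 and 0.465 in the P libraries. After induction it was 3.84 and 3.72 in the C libraries and 1.32 and 1.49 in the P libraries.

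**Figure D3:**
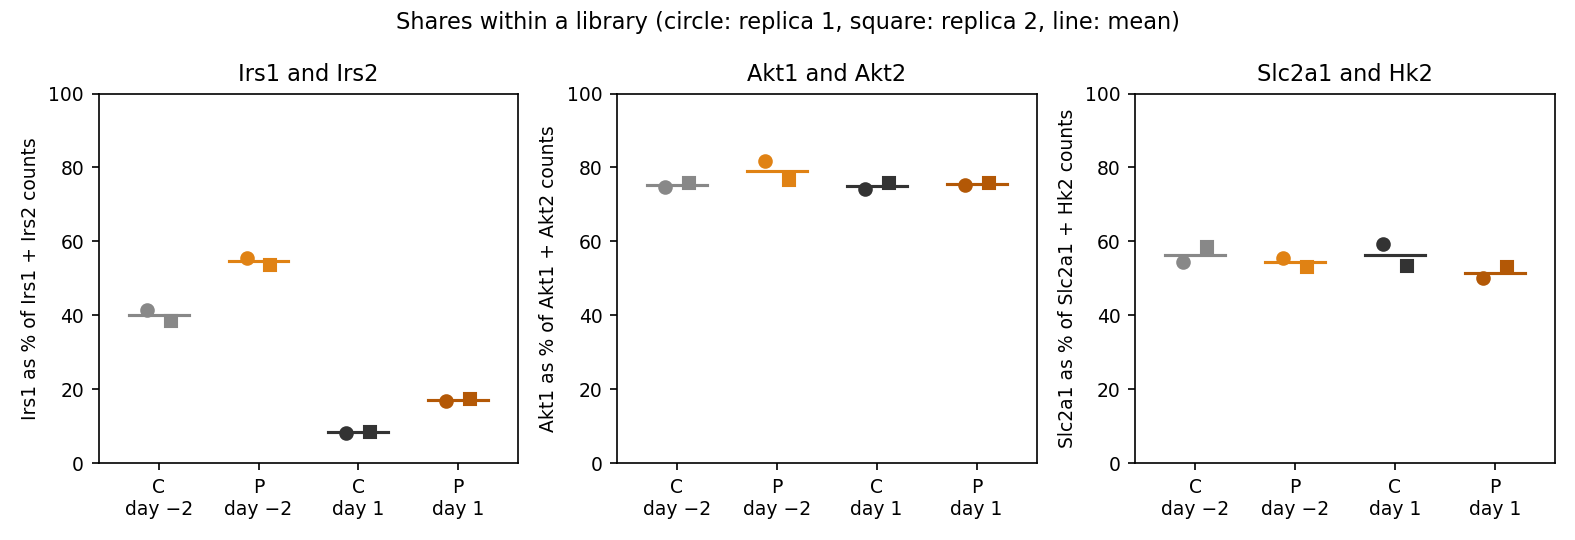
Shares of reads within each library, in percent from 0 to 100, for Irs1 of Irs1 plus Irs2, Akt1 of Akt1 plus Akt2, and Slc2a1 of Slc2a1 plus Hk2, with replica 1 as a circle, replica 2 as a square and the mean as a line. The Irs1 share drops from between 38.5% and 55.6% at day −2 to between 8.26% and 17.2% at day 1, while the other 2 shares stay between 74.25% and 81.7% and between 50.03% and 59.3%.

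Pik3r1 (NCBI gene 18708) had 39.99 and 38.3 CPM in C cells and 63.9 and 57.6 CPM in P cells at day −2. The day 1 values were 146.1 and 167.8 CPM in C cells and 268.4 and 268.8 CPM in P cells. The conditions followed each other without overlap, from C and P cells at day −2 to C and P cells at day 1. Induction raised it 4.01-fold in C cells (log2 ratio 2.00, SE 0.14, adjusted p = 0.000243) and 4.42-fold in P cells (2.14, SE 0.14, adjusted p = 0.000301), and the 2 responses differed by 0.14 (interval −0.33 to 0.61, adjusted p = 0.682). With replica 1 of the P cells at day −2 left out, the log2 ratio in P cells was 2.21 (adjusted p = 5.5e-06) and the difference 0.18, and with replica 2 left out they were 2.08 (adjusted p = 4.54e-06) and 0.07.

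P cells held 1.55 times the Pik3r1 level of C cells at day −2 (log2 ratio 0.64, SE 0.14, adjusted p = 0.0502) and 1.71 times at day 1 (0.78, SE 0.14, adjusted p = 0.0338). Without replica 1 or replica 2 of the P cells at day −2, the first of these was 0.57 (adjusted p = 0.0163) and 0.70 (adjusted p = 0.00102). It was lost in 9 of 17 alternatives, among them the fit to the day −2 libraries alone (0.62, adjusted p = 0.352), library totals in place of TMM scaling (0.44, adjusted p = 0.101) and the omission of any 1 library other than those of P cells at day −2. The day 1 difference was lost only without any 1 library of C cells or of P cells at day 1.

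The kinase genes were not called in any comparison. Akt1 (NCBI gene 11651), the form found in most tissues, had 468.1 and 457.4 CPM in C cells at day −2 and 445.3 and 522.0 CPM at day 1. In P cells it had 821.5 and 503.9 CPM at day −2 and 424.0 and 410.1 CPM at day 1. The first P library at day −2 stood far above the other 7. In C cells the log2 ratio of the days was 0.06 (interval −0.50 to 0.62, adjusted p = 0.87). In P cells it fell by 0.67 on the log2 scale (SE 0.24, adjusted p = 0.0892), by 0.28 (adjusted p = 0.121) without that library and by 0.97 (adjusted p = 0.000165) without the other P library at day −2, so the size of the fall depends on replica 1, and it passed in 6 of 17 alternatives. Before induction the P to C ratio was 0.52 on the log2 scale (interval −0.04 to 1.08, adjusted p = 0.222), or 0.13 without replica 1 of the P cells and 0.82 without replica 2. The C libraries lay below the P libraries at that day, but the replicas of P cells lay farther apart than the second was from C cells. At day 1 it was −0.21 (interval −0.77 to 0.35, adjusted p = 0.787). Another transcript overlapping Akt1, Mir6939, had 0 to 12 counts.

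Akt2 (NCBI gene 11652), the form required for insulin-driven glucose uptake in fat, had 158.1 and 146.5 CPM in C cells at day −2 and 154.5 and 167.7 CPM at day 1. In P cells it had 184.5 and 153.6 CPM at day −2 and 138.9 and 130.4 CPM at day 1. The P libraries at day 1 were the lowest of the 8, and the other conditions overlapped. None of its ratios passed with all libraries: in C cells the log2 ratio of the days was 0.08 (interval −0.27 to 0.43, adjusted p = 0.726), and in P cells it was −0.33 (interval −0.68 to 0.02, adjusted p = 0.159). The ratio in P cells was −0.20 (adjusted p = 0.212) without replica 1 at day −2 and −0.45 without replica 2, where it passed (adjusted p = 0.00736). Between P and C cells it was 0.15 (interval −0.20 to 0.50, adjusted p = 0.519) at day −2, or 0.02 (adjusted p = 0.933) and 0.27 (adjusted p = 0.0644) without replica 1 and 2 of the P cells, and −0.26 (interval −0.61 to 0.09, adjusted p = 0.487) at day 1. Akt1 took 74.8% and 75.7% of the reads on both kinase genes in C cells at day −2, and 74.25% and 75.7% at day 1. The P libraries at day 1 had 75.3% and 75.9%. In P cells at day −2 it took 81.7% and 76.6%.

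Foxo1 (NCBI gene 56458) showed the largest induction of the 9 genes other than Slc2a4 in C cells. It had 5.18 and 5.27 CPM in C cells and 9.32 and 8.41 CPM in P cells at day −2. After induction these were 33.8 and 32.9 CPM in C cells and 30.2 and 33.55 CPM in P cells. C and P cells were apart before induction and overlapped after it. The rise was 6.38-fold in C cells (log2 ratio 2.67, SE 0.17, adjusted p = 0.000151) and 3.595-fold in P cells (1.85, SE 0.16, adjusted p = 0.000706). In P cells it was 1.91 (adjusted p = 2.03e-05) on the log2 scale without replica 1 at day −2 and 1.78 (adjusted p = 1.74e-05) without replica 2.

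P cells held 1.70 times the Foxo1 level of C cells at day −2 (log2 ratio 0.76, SE 0.16, adjusted p = 0.0443). This was 0.70 (adjusted p = 0.0165) without replica 1 of the P cells at day −2 and 0.83 (adjusted p = 0.0016) without replica 2. It passed in 9 of 17 alternatives, and was lost among others in a fit to the day −2 libraries alone (0.75, adjusted p = 0.366) and without any 1 library other than those of P cells at day −2. At day 1 the log2 ratio was −0.07 (interval −0.43 to 0.30, adjusted p = 0.919). The response of P cells was smaller than that of C cells by 0.83 on the log2 scale (SE 0.22), which did not pass in edgeR (adjusted p = 0.17) and passed in DESeq2 (−0.84, adjusted p = 0.0472). It was −0.79 (adjusted p = 0.0367) without replica 1 of the P cells at day −2 and −0.90 (adjusted p = 0.0036) without replica 2.

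The genes for glucose uptake and trapping went opposite ways in C and P cells. Slc2a1 (NCBI gene 20525) had 79.8 and 78.9 CPM in C cells at day −2 and 135.6 and 133.1 CPM at day 1. In P cells it had 182.9 and 97.15 CPM at day −2 and 71.8 and 73.9 CPM at day 1. The C libraries were higher after induction and the P libraries lower, and at day 1 the P libraries were the lowest of the 8. In C cells it rose 1.69-fold (log2 ratio 0.76, SE 0.27, adjusted p = 0.0854), which passed in 10 of 17 alternatives and was lost among others without any 1 C library or any 1 P library at day 1. In P cells it fell to 0.52 times its level (−0.94, SE 0.28, adjusted p = 0.0527), and the log2 ratio was −0.43 (adjusted p = 0.0118) without replica 1 at day −2 and −1.32 (adjusted p = 1.07e-05) without replica 2. The fall did not pass in the fit to the P libraries alone or without either C library at day −2 or either P library at day 1.

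Between P and C cells the log2 ratio of Slc2a1 was 0.82 (interval 0.17 to 1.47, adjusted p = 0.132) at day −2, or 0.30 (adjusted p = 0.0899) without replica 1 of the P cells and 1.20 (adjusted p = 3.58e-05) without replica 2. The day 1 ratio was −0.88 (interval −1.54 to −0.23, adjusted p = 0.16). The P libraries lay below the C libraries, and the replicas of each lay close together. The day 1 ratio kept its size and passed in a fit to the day 1 libraries alone (−0.88, SE 0.09, adjusted p = 0.00111), in DESeq2 (−0.91, adjusted p = 0.0451) and without either P library at day −2 (−0.91 and −0.89, adjusted p = 0.000156 and 0.000172). The response of P cells minus that of C cells was −1.70 (SE 0.39, adjusted p = 0.117 in edgeR, −1.72 and 0.00372 in DESeq2). Without replica 1 of the P cells at day −2 the difference was −1.21 (adjusted p = 0.000937) and without replica 2 it was −2.09 (adjusted p = 3.09e-05).

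Hk2 (NCBI gene 15277) followed the same pattern. It had 67.0 and 56.2 CPM in C cells at day −2 and 92.9 and 116.0 CPM at day 1, and in P cells 146.1 and 85.6 CPM at day −2 and 71.8 and 65.3 CPM at day 1. The C libraries were again higher after induction and the P libraries lower, and at day 1 the P libraries lay below the C libraries. It rose 1.69-fold in C cells (log2 ratio 0.76, SE 0.27, adjusted p = 0.0798), which was lost without any 1 of these same libraries. It fell to 0.59 times its level in P cells (−0.76, SE 0.27, adjusted p = 0.0889), which became −0.33 (adjusted p = 0.151) without replica 1 at day −2 and −1.08 (adjusted p = 0.000352) without replica 2, and passed in 6 of 17 alternatives. Before induction the P to C ratio was 0.91 on the log2 scale (interval 0.27 to 1.55, adjusted p = 0.102), with 0.48 (adjusted p = 0.0864) and 1.24 (adjusted p = 0.000213) without replica 1 and 2 of the P cells. Before induction Hk2 was thus lower in each C library than in either P library. The day 1 ratio was −0.61 (interval −1.24 to 0.03, adjusted p = 0.331), and passed only when the day 1 libraries were fitted alone (−0.60, adjusted p = 0.0194) or without either P library at day −2 (−0.63 and −0.61, adjusted p = 0.0106 and 0.0116). The response of P cells minus that of C cells was −1.52 (SE 0.38, adjusted p = 0.144 in edgeR, −1.54 and 0.0123 in DESeq2), or −1.11 (adjusted p = 0.0138) without replica 1 of the P cells at day −2 and −1.85 (adjusted p = 0.000213) without replica 2. Of the reads on Slc2a1 and Hk2, Slc2a1 took between 50.03% and 59.3% in every library.

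Slc2a4 (NCBI gene 20528), which encodes GLUT4, was near the limit of detection. It had 5 and 4 counts in C cells and 0 and 2 counts in P cells at day −2. After induction it had 0 and 0 counts in C cells and 14 and 17 counts in P cells, or 0.598 and 0.793 CPM. The P libraries at day 1 were above all others. Against C cells at day 1, with each library at 0 counts set to the 3 counts that it allows, the level in P cells was at least 5.85-fold higher (31 against 0 counts, adjusted p = 0.0462 in edgeR). Against P cells at day −2, it was 16.2-fold higher with an exact interval from 4.12 to 139.6 that covers counting error only (31 against 2 counts, adjusted p = 0.0334). With the same floor, it was in C cells at least 1.58-fold lower at day 1 than at day −2 (0 against 9 counts, adjusted p = 0.0513). The ratio of C to P cells at day −2 was 4.42 (interval 0.915 to 42.0, adjusted p = 0.267).

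The difference of Slc2a4 between P and C cells at day 1 passed in 9 of 16 alternatives and its fall in C cells in 9 of 15, and both were lost without any 1 C library or any 1 P library at day 1. The rise in P cells did not pass without either C library at day −2 or either P library at day 1, or in a fit to the P libraries alone. It passed without replica 1 of the P cells at day −2 (adjusted p = 0.057) and without replica 2 (adjusted p = 0.0136), while the day −2 difference from C cells had an adjusted p of 0.536 and 0.0817. A list of 10 adipocyte markers summed to between 253.8 and 255.4 CPM in P cells and 80.2 to 84.3 in C cells at day 1. At day −2 the sums were 52.9 to 61.8 in P cells and 28.2 to 28.3 in C cells. The markers did not move together. From day −2 to day 1 in C cells, mean Pparg went from 19.4 to 37.7 CPM, Lipe from 5.47 to 25.8 and Cebpa from 0.799 to 16.6. Over the same step Adipoq stayed at 0.042 and 0.079 CPM, and Fabp4 went from 2.21 to 1.09. In P cells at day 1 Adipoq had 17.7 CPM and Fabp4 70.8. Plin1, Cidec and Cfd had 14.05, 26.4 and 11.1 CPM in P cells at day 1, and 0.079, 0.515 and 0 CPM in C cells at day 1. Lep, also in the list, had at most 3 counts in any library. The part of these markers in the Slc2a4 result was not tested. In RNA from whole cultures, more cells of a kind and more RNA in each cell cannot be told apart.

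Genes with a pattern like that of each called gene were looked for among 10903 genes by the Pearson correlation of log2 CPM over the 8 libraries, which fall into 4 conditions. For Irs1 these were Ext1 (r = 0.997), Rffl (0.992) and Limch1 (0.991), and for Irs2 they were Zmiz1 (0.996), Cachd1 (0.995) and Avil (0.995). Pik3r1 was most like Aplp2 (0.996), Megf9 (0.995) and Tmem80 (0.995), and Foxo1 most like Stx16 (0.998), Pde10a (0.997) and Ap3m2 (0.997). Slc2a4 was matched less closely, by Pwwp3b (0.984), Nadk (0.941) and Kif21a (0.939).

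The rest of the pathway was examined in 8 lists of 110 genes, of which 101 had enough counts. In the induction of C cells 22 were called higher and 11 lower, and in that of P cells 9 higher and 14 lower. Of all genes tested, 10.7% and 9.68% were called higher and lower at the induction of C cells, and 7.65% and 10.4% at that of P cells. Between P and C cells, 5 were called higher and 1 lower at day −2, against 4.83% and 2.15% of all genes. At day 1, 2 were called higher and 8 lower, against 1.83% and 2.23%. Without either P library at day −2, all 23 genes called in the induction of P cells kept their direction. The log2 ratios of Slc2a5 and Slc2a6, both at low counts, were −1.91 and −2.16 without replica 1. The 6 genes called at day −2 also kept their direction, Slc2a10 having a log2 ratio of 0.90 without replica 1. Passing in these fits is not counted, since their spread comes from the other 3 conditions. In a fit to the day −2 libraries alone, the 931 genes called over all genes were 81.

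Next to the receptor and its substrates, 10 of 13 relatives and adaptors were tested. Dok1, a docking protein, fell with induction, with log2 ratios of −1.55 in C cells and −2.09 in P cells (adjusted p = 0.011 and 0.0049). The receptor relative Insrr and the substrates Irs3 and Irs4 had too few counts to be tested.

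Among 11 genes of PI3K and the kinase steps next to it, none was called higher in any comparison, while Pik3r1 rose. The catalytic subunits Pik3cb and Pik3cd fell with induction in C cells (log2 ratios −2.23 and −2.70, adjusted p = 0.000412 and 0.00235) and in P cells (−1.35 and −2.58, adjusted p = 0.00398 and 0.00349). Pik3cb had 23.9 and 27.7 CPM in C cells and 9.58 and 10.7 CPM in P cells at day −2, for a log2 ratio of −1.35 (SE 0.18, adjusted p = 0.00955).

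Of 15 genes that restrain insulin signalling, 4 were called higher and 4 lower with induction in C cells, and in P cells 2 were called higher and 2 lower. Grb14, whose product inhibits the insulin receptor kinase, had 16.3 and 15.3 CPM in C cells and 67.9 and 81.2 CPM in P cells at day −2, and 6.82 and 6.29 CPM in C cells and 13.03 and 14.04 CPM in P cells at day 1. Its log2 ratio of P to C cells was 2.24 (SE 0.17, adjusted p = 0.00162) at day −2 and 1.05 (SE 0.17, adjusted p = 0.0228) at day 1. Like Irs1, it was higher in P cells at each day and lower after induction in C and P cells (−1.27 and −2.46, adjusted p = 0.00238 and 0.000307). Socs3, which blocks the receptor's access to its substrates, rose in C and P cells (2.63 and 1.45, adjusted p = 0.0036 and 0.0337). Trib1, a pseudokinase of a family that binds AKT, had 181 and 147 CPM in C cells and 77.1 and 76.0 CPM in P cells at day 1, for a log2 ratio of −1.10 (SE 0.15, adjusted p = 0.0144), after a rise of 1.58 in C cells (adjusted p = 0.000727). Socs1 was lower in P cells at day 1 too (−1.40, adjusted p = 0.0549). Grb10 was called lower in C cells at induction (−4.01, adjusted p = 0.0332) on 68 and 101 counts at day −2 and 4 and 7 at day 1. Its P libraries scattered widely, with 4 and 50 counts at day −2 and 64 and 17 at day 1. In P cells at induction, Inpp5k, a phosphatase of the PI3K product, rose (1.25, adjusted p = 0.00459) and Enpp1, an inhibitor of the receptor, fell (−2.06, adjusted p = 0.042).

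Of 12 genes with products regulated by AKT or downstream of it, 2 were called higher and none lower with induction in C cells. Among all genes 10.7% and 9.68% were called higher and lower there. Pde3b, the phosphodiesterase through which insulin restrains lipolysis, rose in C and P cells (log2 ratios 1.89 and 2.18, adjusted p = 0.000333 in each). Gys1, glycogen synthase, rose in C cells (1.61, adjusted p = 0.000795). At neither day was a gene of this list called between P and C cells, against 6.98% of all genes at day −2 and 4.06% at day 1.

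Of 14 FOXO factors and genes known as FOXO targets, 10 rose and 2 fell with induction in C cells, 8 of them called higher and 1 lower. In P cells 6 rose and 2 fell, 3 called higher and 1 lower. Among all genes 18.1% rose and 17.4% fell in C cells, and 14.0% rose and 17.4% fell in P cells. The medians were 1.02 and 0.35 on the log2 scale, and those of all genes −0.01 and 0.02. The number called higher in C cells was between 4 and 8 when a library was left out. Bcl6 rose in C and P cells (1.46 and 1.47, adjusted p = 0.000751 and 0.00105) and Ccng2 was called in C cells (1.63, adjusted p = 0.00113), while Fbxo32, a ubiquitin ligase of muscle, fell in C and P cells (−1.10 and −1.83). Pnpla2, the first lipase of fat stores, had 17.8 and 19.4 CPM in C cells and 43.9 and 42.7 CPM in P cells at day 1, for a log2 ratio of 1.22 (SE 0.21, adjusted p = 0.0285). It rose in P cells at induction (1.37, adjusted p = 0.00574). It was the only gene of this list called between P and C cells at either day, against 6.98% of all genes at day −2 and 4.06% at day 1.

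Of 9 other glucose transporters, Slc2a2, Slc2a3 and Slc2a12 had too few counts. Slc2a13, a transporter of myo-inositol, rose with induction in C and P cells (log2 ratios 4.52 and 4.34, adjusted p = 0.000265 and 0.000492). Slc2a8 was called higher in C cells (1.22, adjusted p = 0.0164) and Slc2a5, the fructose transporter, lower (−1.95, adjusted p = 0.0996), at under 1 CPM. In P cells 4 of the 6 were called lower, against 10.4% of all genes. Among them were Slc2a10 and Slc2a9 (−1.50 and −1.22, adjusted p = 0.00611 and 0.0481). Slc2a10 was higher in P than in C cells at day −2 (1.16, adjusted p = 0.0371).

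Of 16 genes of GLUT4 vesicle traffic, 2 were called higher and 1 lower with induction in C cells, and 1 each way in P cells. Trarg1, which regulates traffic of GLUT4 in fat cells, had 2 and 1 counts in C cells and 41 and 46 counts in P cells at day −2, for a log2 ratio of 4.81 (SE 0.58, adjusted p = 0.00646), and rose in C cells to 11 and 18 counts at day 1 (3.09, adjusted p = 0.0119). Vamp2, the SNARE of GLUT4 vesicles, rose in C cells (1.43, adjusted p = 0.00432) and Sort1, sortilin, fell (−1.19, adjusted p = 0.0146). In P cells Tbc1d4, the AKT substrate AS160, was called higher (1.08, adjusted p = 0.014) and Myo1c lower (−1.11, adjusted p = 0.00762). Neither was called in C cells, but their means moved the same way. Mean Tbc1d4 went from 21.6 to 39.57 CPM there and mean Myo1c from 402.7 to 248.3 CPM. Vamp2 also rose in P cells (0.91), without being called. The log2 ratios of Sort1 and Trarg1 in P cells were −0.16 and −0.55, and neither passed.

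At induction and in P against C cells at day 1, many enzymes of glucose breakdown went in the directions of Slc2a1 and Hk2. Before induction their directions were mixed. Of 17 tested genes of this list, which does not contain Hk2, 8 rose and none fell with induction in C cells, 3 of them called. In P cells 1 rose and 8 fell, 1 called higher and 3 lower. Among all genes 18.1% rose and 17.4% fell in C cells, and 14.0% rose and 17.4% fell in P cells. At day −2, 11 of the 17 had a ratio of P to C cells above 1 and 6 below 1, with a median log2 ratio of 0.27. By the test 3 were higher and 1 lower in P cells, against 7.62% and 3.72% of all genes. At day 1, 16 of the 17 had a ratio below 1, with a median log2 ratio of −0.94 against 0.01 for all genes. By the test 10 were lower in P cells and 6 were called, against 3.42% lower and 2.23% called lower over all genes. The response of P cells minus that of C cells was below 0 for all 17, with a median of −1.20, and 7 passed, against 2.37% of all genes in either direction and 1.93% downwards.

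Pgk1, phosphoglycerate kinase, had 1258 and 1336 CPM in C cells and 461 and 480 CPM in P cells at day 1, for a log2 ratio of −1.46 (SE 0.16, adjusted p = 0.0064). Pgam1, phosphoglycerate mutase, had 1153 and 1080 CPM in C cells and 428 CPM in each P library (−1.38, SE 0.17, adjusted p = 0.00923). The other genes called lower at day 1 were Pfkl (−1.69), Aldoa (−1.40), Tpi1 (−1.21) and Eno1 (−1.13). Txnip, an inhibitor of glucose uptake, had 206 and 227 CPM in C cells and 119 and 131 CPM in P cells at day 1, up from 30.2 and 30.8 CPM and from 55.1 and 58.8 CPM. It rose with induction in C and P cells (2.83 and 1.14, adjusted p = 7.84e-05 and 0.00214), and the responses differed by −1.69 (SE 0.19, adjusted p = 0.013). Slc16a3, the exporter of lactate, was called higher in P cells at day −2 (2.45, adjusted p = 0.0446; 20 and 17 counts against 114 and 70), with 1.69 (adjusted p = 0.0467) and 2.95 (adjusted p = 0.000348) without replica 1 and 2 of the P cells, and lower with induction in P cells (−3.75, adjusted p = 0.00572). In C cells Pfkp rose (1.46, adjusted p = 0.00147).

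Between 6 and 8 of the 17 genes were called lower at day 1 without any 1 library at day −2 or with the day 1 libraries fitted alone. Without replica 1 or 2 of the C cells at day 1 there were 4 and 3, and without either P library at day 1 there were 0. Of the differences between the responses, 13 passed in DESeq2, where 930 of 13339 genes did so, against 316 in edgeR. Without any 1 library other than those of P cells at day −2, most of those that passed in edgeR were lost. Counts without either P library at day −2 are not given, since the spread then comes from the other 3 conditions.

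**Figure D4:**
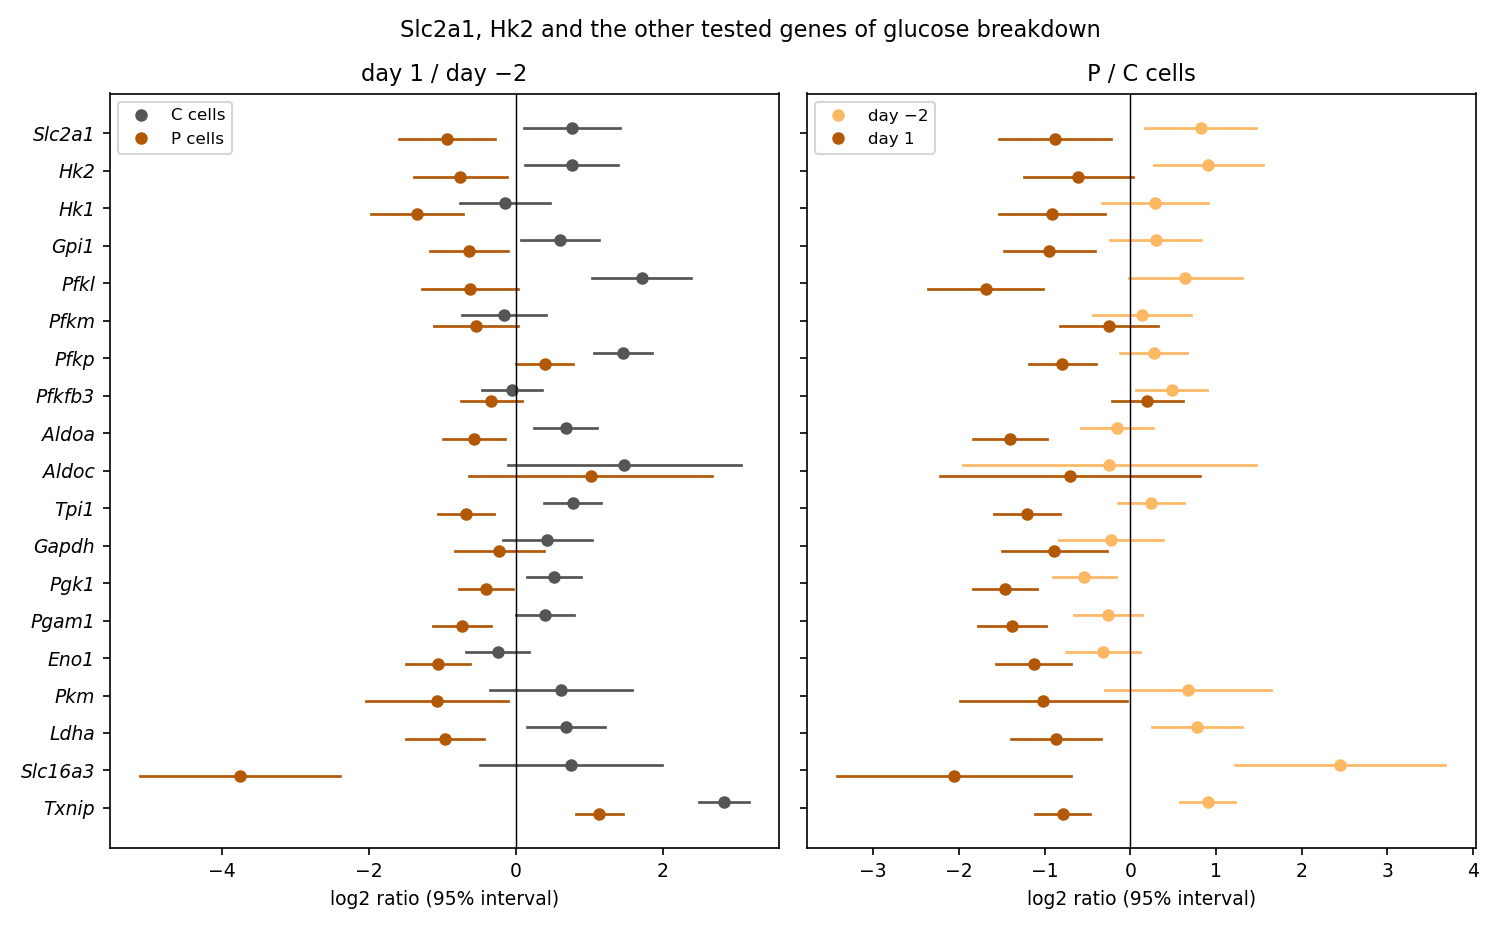
The log2 ratios of Slc2a1, Hk2 and the 17 tested genes of glucose breakdown, with the 95% interval of the quasi-likelihood model as a line. The left panel shows day 1 against day −2 in C cells (grey) and P cells (brown), and the right panel P against C cells at day −2 (pale) and day 1 (brown). The C cell points lie right of the P points on the left for every gene, and at day 1 every gene apart from Pfkfb3 lies left of zero on the right.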

How the data were processed

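RNA of 8 cultures of 3T3-L1 cells was sequenced on the Ion Torrent system. The authors used the FASTX-Toolkit for filtering and TopHat2 2.0.9 for alignment to mm9. They deposited raw counts of reads for each NCBI gene of UCSC's refGene annotation, without normalization. The use of strand and the counting of reads that fit more than 1 gene are not given in the sources used here. Symbols came from a RefSeq list of GRCm38.p6, for 23929 of 24013 genes, and 84 kept their number. Its lengths include introns, so levels were not compared between genes. All 8 value columns were used, and 0 were left out.

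The software was edgeR 4.0.16 with limma 3.58.1, run under R 4.3.3. After filterByExpr on the 4 conditions, 13339 genes were scaled by TMM, with factors between 0.837 and 1.08, and fitted with 1 mean per condition in a quasi-likelihood model over all libraries. Day 1 was compared with day −2 in C and in P cells, P with C cells at each day, and the responses of both to induction with each other. Tests were two-sided, with Benjamini-Hochberg adjustment over all genes tested. A gene was called at an adjusted p-value under 0.1 and a ratio over 2 or under 0.5, thresholds that the study's methods give for DESeq, and the difference of the responses at an adjusted p-value under 0.1 alone. For Slc2a4, ratios of summed counts were given with exact intervals at the 95% level, and each library of a condition at 0 was set to 3 counts. These and the detection floors cover counting error only. The procedure was tested on simulated counts.

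Named were the 10 genes and Prep1, the called genes with the lowest p in each of the 8 lists (up to 2 higher and 2 lower in each comparison), and the 3 genes most correlated with each called gene among those with a mean of at least 50 counts, with a prior count of 2. Pfkl, Aldoa, Tpi1, Gapdh and the untested genes were named outside this rule, after their values were seen. Some of the genes the rule names are not reported here. The 10 genes and the lists were chosen with earlier results of these data known. Alternatives were library totals, upper-quartile factors or DESeq2's size factors in place of TMM, no filter or at least 10 counts in every library, DESeq2 1.42.0 in place of edgeR, a fit to the compared conditions only, the replica number as a block, leaving out the ratio threshold, a stricter adjusted p-value of 0.05, and omitting each library once.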

Additional observations from a re-analysis of the deposited data

Results flagged for a closer look

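The change of Slc2a4 at induction was higher in P than in C cells, by 9.10 on the log2 scale in edgeR's quasi-likelihood interaction test (SE 1.71, adjusted p = 0.0895), and this difference of responses was itself the reason to look again. P cells went from 0 and 2 counts to 14 and 17, and C cells from 5 and 4 counts to 0 and 0. With a condition at 0 counts, the fitted size depends on the prior count and is no bound. The difference passed in 6 of 15 alternatives, and was lost with library totals, with the replica number as a block, crossed at day 1 or not, and without any 1 library other than those of P cells at day −2.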

How the results depend on the processing

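The induction of Irs1, Irs2, Pik3r1 and Foxo1 kept its direction and passed in all 17 alternatives in C and P cells. Without a ratio threshold the genes counted were 8 in the induction of C cells and 8 in that of P cells (5 called in each), 3 between P and C cells at day −2 (0 called) and 3 at day 1 (1 called). At day 1 the number called was 2 with library totals, Irs1 being added, and 0 with at least 10 counts in every library, where Slc2a4 is not tested. The differences of the responses that passed, 1 in all, were 0 with library totals, 0 with at least 10 counts, 0 at an adjusted p under 0.05, 3 without a filter and 4 in DESeq2. Among the 101 tested list genes they were 11, and 24 in DESeq2. Leaving out 1 library could bring the number called at day 1, and the number of differences of the responses that passed, to 0. Without either P library at day −2 the spread is estimated from the other 3 conditions. The larger counts of those fits are therefore not comparable with the counts above.

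Prep1 did not pass at day −2 without a filter (−0.62, adjusted p = 0.118) or in the fit to the day −2 libraries (−0.63, adjusted p = 0.374), and ranged from −0.67 to −0.57 with a library left out, passing only without a P library at day −2. At day 1 it did not pass with library totals (−0.55, adjusted p = 0.151) or without a filter (−0.67, adjusted p = 0.141), and ranged from −0.70 to −0.65, passing again only without a P library at day −2. No called value reversed. Of the values that did not pass, library totals turned those of Akt1 (−0.047) and Akt2 (−0.028) in the induction of C cells, of Akt2 at day −2 (−0.049), of Foxo1 at day 1 (0.037) and of Irs2 between the responses (0.094). They move the median of all genes to −0.11 and 0.20 in the induction of C and P cells, −0.18 and 0.11 between P and C cells at day −2 and day 1, and 0.29 between the responses. With a library left out, Akt1 in the induction of C cells ranged from −0.0425 to 0.20, Insr in that of P cells from −0.083 to 0.42 and at day −2 from −0.38 to 0.13, Irs2 at day −2 from −0.13 to 0.092, Foxo1 at day 1 from −0.15 to 0.0091 and Irs1 between the responses from −0.075 to 0.25. The causes were not tested.

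Over all genes, the 931 called at day −2 were 81 in the fit to those libraries, 602 at an adjusted p under 0.05 and 188 to 4380 with a library left out. The 2406 of the induction of P cells were 1213 in its own fit and 1248 to 5000 with a library left out, and the 2723 of C cells 1664 to 3329. The 542 at day 1 were 899 in their own fit and 63 to 994. The 316 of the responses were 930 in DESeq2, 174 at an adjusted p under 0.05 and 32 to 8395. Without a ratio threshold they were 4743, 4192, 1513 and 820. Called higher were 52.6% of the calls in C cells with TMM and 45.6% with library totals, 42.4% and 54.5% in P cells, 69.2% and 55.5% at day −2, 45.0% and 51.8% at day 1, and 18.4% and 31.6% between the responses.

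Whether equal replica numbers mark cultures handled together is not given by the labels. Across genes, the deviations of same-numbered libraries correlated at 0.209 between the C and P conditions of day −2. In the other 5 pairs of conditions the correlation lay between −0.355 and −0.0523. With 2 replicas, a negative value means that libraries with unequal numbers deviated alike, so these correlations cannot decide how cultures were paired. With the number as a block, 0 of the 10 genes were called at day 1 and 0 of the 10 passed between the responses. The block also ended the passing of Insr and Slc2a1 in the induction of C cells (adjusted p = 0.125 and 0.108), of Akt1 and Hk2 in that of P cells (0.139 and 0.126), of Pik3r1 and Foxo1 at day −2 (0.123 and 0.108) and of Slc2a4 at day 1 (0.117). The block left 2 list genes between the responses, and over all genes 597 called at day −2 and 117 between the responses. Prep1 was −0.62 (adjusted p = 0.131) and −0.65 (adjusted p = 0.148) with the block. A block with the day 1 numbers crossed, chosen after the data were seen, also left 0 of the 10 genes between the responses. Levels per gene length were not run, since no transcript lengths were at hand. Slc2a4 has no value with at least 10 counts in every library. At 0 to 17 counts in a library its ratios are limited by depth.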

Other observations

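Gapdh, an enzyme of glucose breakdown that is widely used as a reference transcript, had 3176 and 2215 CPM in C cells and 1420 and 1497 CPM in P cells at day 1. It was named after its values were seen. The P libraries lay below the C libraries, with a log2 ratio of −0.89 (SE 0.26), which did not pass in edgeR's quasi-likelihood test (adjusted p = 0.136). A level stated relative to Gapdh would differ from a level in CPM by this ratio.

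The count ratio of Slc2a1 to Hk2 lay between 1.001 and 1.459 in all 8 libraries, and that of Akt1 to Akt2 between 2.88 and 4.45, whereas that of Irs1 to Irs2 ran from 0.0900 to 1.25. These ratios do not depend on the scaling of a library. The highest ratio of Akt1 to Akt2 and the highest of Irs1 to Irs2 were both in replica 1 of the P cells at day −2, the library with the lowest scaling factor.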
